A study of Mus musculus with 6 samples.

Results

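Nr4a1, Nr4a2, Nr4a3, Egr1, Egr2 and Egr3 are transcription factor genes that T cells switch on rapidly when their antigen receptor is engaged. These 6 genes were picked out of the table by symbol, the choice of symbols having been made with earlier results of these data known, and all 6 were found among the 15319 gene symbols of the count table, of which 15315 had at least 1 count. Their levels were compared between WT and Ku70-deficient tumor-infiltrating Tregs, with and without WT replicate 2, a library that stood apart from the other 5.

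The NR4A proteins are orphan nuclear receptors, and for want of an established natural ligand their activity is thought to follow mainly from how much of them a cell makes. The EGR proteins are zinc finger factors induced by ERK signaling through serum response factor, and in T cells also by NFAT. In Tregs, NR4A receptors are known for promoting Foxp3 expression and Treg stability, and Egr2 and Egr3 are known as brakes on T cell activation.

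The WT group were Foxp3 Yfp-Cre mice and the cKO group Xrcc6 flox/flox Foxp3 Yfp-Cre mice, both on the C57BL/6J background, so both groups carried the Cre recombinase, expressed under Foxp3 and hence in Tregs. Cells of LLC, a mouse lung carcinoma line, were injected through the tail vein when the mice were 8 to 10 weeks old, and Tregs were isolated from the lung tumors on day 21. RNA-Seq gave 3 libraries per group, and the labels do not say whether each library came from 1 mouse. The sort gate stated in the study, CD4+CD25+YFP+, is given for Tregs of spleen and lymph nodes. The study states that it used both male and female mice, but the sex behind each library and any pooling of mice were not given in the sources used here.

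Total counts were 19032620 to 21707706 in the WT libraries and 20762042 to 23159815 in the cKO libraries. Xrcc6, the gene that encodes Ku70, had a CPM (its count scaled to the size of the library) of 20.9, 63.1 and 23.8 in the WT libraries and of 5.24, 3.51 and 4.18 in the cKO libraries, each group written here and below in the order of replicates 1, 2 and 3. Xrcc6 overlaps Desi1 on the other strand, which can add reads to its count. WT replicate 2 listed 11513 genes with a count against 14442 to 14737 in the others, and its log2 CPM correlated across genes with another library at no more than 0.930, where each other library reached at least 0.991. Of the 8447 genes with a mean of at least 10 CPM, it was the highest library for 37.6% and the lowest for 39.6%, so values are given with and without it. Treg markers were abundant, with 9 of 10 measured and summing to 4966 to 7279 CPM in WT and 5541 to 6341 CPM in cKO libraries.

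No member of the NR4A and EGR families passed an adjusted p of 0.05 (edgeR's quasi-likelihood test, with p-values adjusted over all genes by Benjamini-Hochberg), either with 6 libraries or without WT replicate 2. Over all 15315 genes, edgeR called 0 (0%) with 6 libraries, while DESeq2 called 2. Without WT replicate 2, edgeR called 1 of 15302 genes (0.00654%), which was Xrcc6. At an unadjusted p of 0.05, 1 of the 6 members, Egr3, was lower in cKO, against 277 of all genes (1.81%) with 6 libraries, and Egr3 was again the 1 member past it against 461 genes (3.01%) without WT replicate 2. The adjusted p from edgeR was 0.984 for all 6 members with 6 libraries and 0.997 for all 6 without WT replicate 2. The groups of 3 libraries did not overlap for 1 of the 6 members, again Egr3 and again with cKO lower, against 495 of all genes (3.23%). When WT replicate 2 was left out, the same held for Egr3 alone among the 6, against 1153 of all genes (7.53%).

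**Figure D1:**
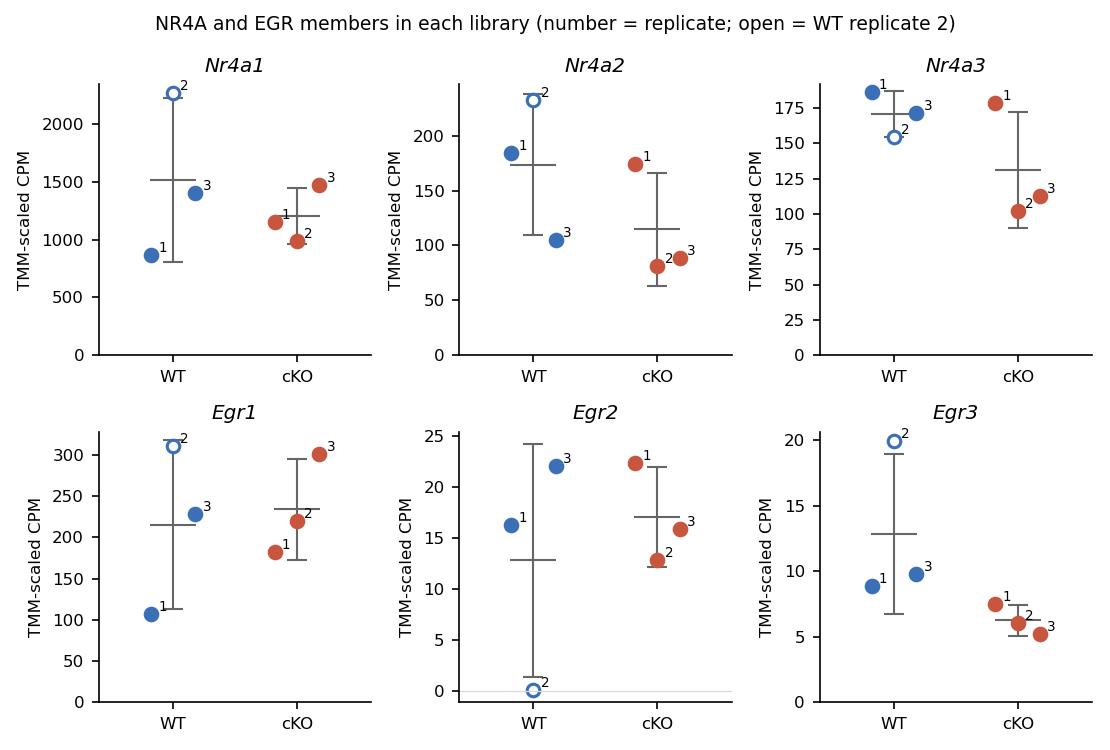
CPM (scaled by edgeR's TMM method) of each member in the 3 WT (blue) and 3 cKO (red) libraries, where the number beside a point is its replicate, the open point is WT replicate 2, and bars give the mean and SD. The 3 cKO libraries lie below the 3 WT libraries for Egr3, at 5.20 to 7.47 against 8.84 to 19.9 CPM, and the groups overlap for the other 5 members.

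Nr4a1, which encodes Nur77 and is widely used as a reporter of antigen receptor signaling, was the most abundant member and the 91st most abundant of all genes. The WT libraries held 865, 2272 and 1407 CPM, against 1157, 993 and 1471 CPM in cKO. The 3 cKO libraries lay within the WT range, whose lowest and highest values were the lowest and highest of all 6 libraries. The means were 1515 ± 710 CPM in WT and 1207 ± 243 CPM in cKO (SD, n = 3 each). The log2 fold change (cKO over WT throughout) was -0.33 (SE 0.36; 95% interval -1.18 to 0.52), with an unadjusted p of 0.396 in edgeR, and an exact two-sided permutation test of the mean CPM gave p = 0.7, where 3 libraries against 3 cannot give less than 0.1. It was 0.087 (SE 0.26) without WT replicate 2, so that 1 library set its direction. In such bulk samples, less RNA per cell and fewer cells making a transcript cannot be told apart.

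Nr4a2 encodes Nurr1, a receptor of the same family with a nearly identical DNA-binding domain. Levels of 184, 232 and 105 CPM in the WT libraries stood against 174, 81.3 and 88.3 CPM in the cKO libraries. The cKO replicates 2 and 3 lay below every WT library, whereas cKO replicate 1 lay among them. The means were 174 ± 64.2 CPM in WT and 115 ± 51.8 CPM in cKO (SD, n = 3 each), a log2 fold change of -0.60 (SE 0.38; unadjusted p = 0.153 in edgeR). Leaving out WT replicate 2 gave -0.34 (SE 0.34; unadjusted p = 0.337 in edgeR). The deposited counts of Nr4a2 were not all whole numbers, unlike those of the other 5 members, so they are estimates that may divide reads between features.

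Nr4a3, which encodes Nor1, was the member with the smallest spread within the WT group relative to its mean. WT libraries had 187, 154 and 171 CPM of it and cKO libraries 178, 102 and 113 CPM. As for Nr4a2, cKO replicates 2 and 3 lay below all WT libraries and cKO replicate 1 did not. The means were 171 ± 16.1 CPM in WT and 131 ± 41.3 CPM in cKO (SD, n = 3 each), and the log2 fold change was -0.38 (SE 0.23; unadjusted p = 0.137 in edgeR). With WT replicate 2 left out it was -0.45 (SE 0.22; unadjusted p = 0.0714 in edgeR). Without cKO replicate 1 the log2 fold change was -0.67 for Nr4a3 (unadjusted p = 0.00780 in edgeR) and -1.03 for Nr4a2 (unadjusted p = 0.0225 in edgeR), with adjusted p-values of 0.996 for both. This fit gave both genes their smallest unadjusted p of all settings, and 184 genes passed 0.05 in it. With any other single library left out, the unadjusted p in edgeR was 0.0714 to 0.380 for Nr4a3 and 0.0493 to 0.367 for Nr4a2.

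The NR4A genes are textbook targets of CREB, the cAMP response factor, whose core site reads TGACG. In the 250 bases before the start site in the RefSeq promoter table (GRCm38.p6), each of the 3 NR4A genes held 4 matches to TGACG on either strand, whereas 17.8% of all 32851 promoter windows held at least 1 match and 0.137% held 4 or more, a number set after the matches had been seen. Of the 3 NR4A genes and Egr2, which had entries and are printed here to show the sites near these start sites, Egr2 had 5 start sites, and the most upstream one with matches to both TGACG and the CArG box, the site of serum response factor, is shown. Printed are the stretches free of annotated exons, 5′ to 3′ on the gene's strand, with TGACG or its reverse complement in capitals and, in Egr2, also the CArG box. They are chr15:101266596-101266845 (+) for Nr4a1, which lies inside the annotated gene but in none of its exons, chr2:57124004-57124253 (-) and chr4:48045055-48045152 (+) just before the annotated Nr4a2 and Nr4a3 genes, and chr10:67537619-67537868 (+) inside the annotated Egr2 gene but outside its exons.
Nr4a1: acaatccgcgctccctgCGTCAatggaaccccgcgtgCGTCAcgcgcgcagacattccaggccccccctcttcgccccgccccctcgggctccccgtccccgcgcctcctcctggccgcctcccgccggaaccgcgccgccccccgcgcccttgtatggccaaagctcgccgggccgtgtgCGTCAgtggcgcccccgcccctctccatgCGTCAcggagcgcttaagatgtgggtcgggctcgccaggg
Nr4a2: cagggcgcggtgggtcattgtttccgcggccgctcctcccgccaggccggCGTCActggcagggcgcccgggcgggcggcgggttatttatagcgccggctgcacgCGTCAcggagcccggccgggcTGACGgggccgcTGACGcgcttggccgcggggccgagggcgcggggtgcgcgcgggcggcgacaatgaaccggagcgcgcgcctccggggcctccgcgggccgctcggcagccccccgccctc
Nr4a3: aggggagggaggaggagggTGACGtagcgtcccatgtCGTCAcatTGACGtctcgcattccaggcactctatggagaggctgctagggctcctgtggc
Egr2: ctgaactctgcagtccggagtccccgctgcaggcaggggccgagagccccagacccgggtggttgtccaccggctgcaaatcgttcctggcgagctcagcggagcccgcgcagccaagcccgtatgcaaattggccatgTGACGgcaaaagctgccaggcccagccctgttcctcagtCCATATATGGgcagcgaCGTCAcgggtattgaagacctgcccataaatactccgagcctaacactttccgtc

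Counted in bases from the start site, the matches to TGACG began at -233, -213, -69 and -40 in Nr4a1 and at -200, -144, -123 and -111 in Nr4a2. In Nr4a3 they began at -231, -213, -205 and -147, the last of them within an annotated exon and outside the printed stretch. The Egr2 stretch held 2 matches to TGACG, at -111 and -55, with the CArG box between them at -72. It was chosen for holding both sites. Of the Egr2 start sites upstream of it, the first held neither site and the next held a CArG box but no TGACG. The full site TGACGTCA, which contains TGACG, found in 1.55% of windows, had no match in these 4 genes, nor did AAAGGTCA, a site bound by NR4A receptors (1.34% of windows), or TGANTCA, an AP-1 site (6.75%). The EGR site GCGNGGGCG, in 4.7% of windows, had 1 match each in Nr4a1 and Nr4a2. The NFAT core GGAAA, in 55.6% of windows, had 1 match in Nr4a2 and 1 in the printed Egr2 stretch, and the CArG box stood in 1.47% of windows. A match describes the letters only.

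Egr1, an immediate target of serum response factor, was the most abundant EGR gene. The WT libraries held 107, 311 and 228 CPM, against 182, 220 and 302 CPM in cKO. As with Nr4a1, WT replicates 1 and 2 were the lowest and highest of all 6 libraries and the cKO libraries lay between them. The means were 215 ± 102 CPM in WT and 234 ± 61.2 CPM in cKO (SD, n = 3 each), a log2 fold change of 0.12 (SE 0.38; unadjusted p = 0.754 in edgeR). Leaving out WT replicate 2 gave 0.49 (SE 0.32; unadjusted p = 0.166 in edgeR), and without WT replicate 1 it was -0.20, so its direction rested on single libraries.

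Macrophage and monocyte transcripts, like those of B cells and of stromal, endothelial and lung epithelial cells, were lowest in the same libraries as Egr1. The 12 markers of these cells, all measured and all reaching 1 CPM, summed to 193, 714 and 743 CPM in the WT libraries, against 243, 587 and 1123 CPM in cKO. WT replicate 1 and cKO replicate 1 were the lowest of the 6 libraries in this sum and also for Egr1. Lyz2, which encodes the lysozyme of these cells, made up most of it, with 129, 474 and 500 CPM in the WT libraries, against 170, 323 and 625 CPM in cKO. Of the 12 markers, 10 were higher and 2 lower in cKO, with a median log2 fold change of 0.85, and 0 passed an unadjusted p of 0.05. Fcgr1, named after its value was seen, was the only one of them at 0 in WT replicate 2. WT replicate 1 and cKO replicate 1 were also lowest for the summed B cell markers, at 15.3 and 12.7 CPM. The same held for the stromal, endothelial and lung epithelial markers, at 165 and 167 CPM. It did not hold for the neutrophil, the dendritic cell or the CD8 T and NK cell markers. The part of any of these cells in the level of Egr1 was not tested.

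**Figure D2:**
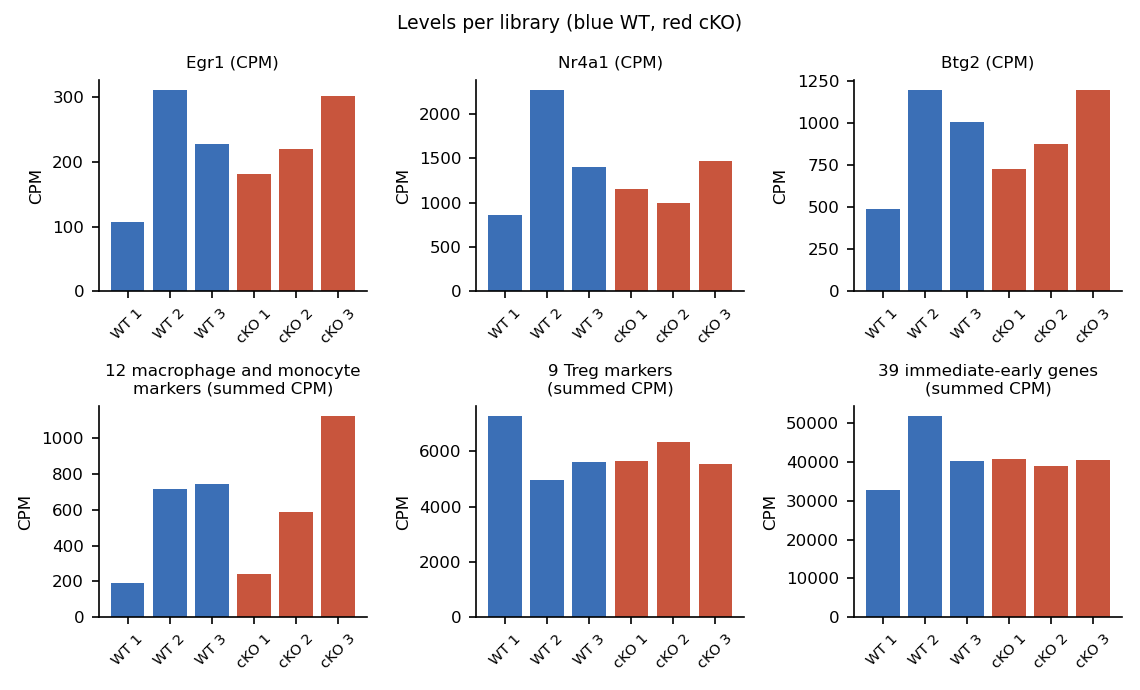
CPM of Egr1, Nr4a1 and Btg2 (top) and summed CPM of macrophage and monocyte markers, Treg markers and immediate-early genes (bottom) in each library, with WT in blue and cKO in red and every axis starting at 0. WT replicate 1 is the lowest library for Egr1 (107 CPM), Nr4a1 (865 CPM) and the macrophage and monocyte markers (193 CPM), and the highest for the Treg markers (7279 CPM).

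Egr2, a factor known for its part in T cell anergy and in limiting effector responses, was nearly missing from 1 library. Levels of 16.3, 0.0470 and 22.1 CPM in the WT libraries stood against 22.4, 12.8 and 15.9 CPM in the cKO libraries. The value in WT replicate 2 was 1 count, where the other 5 libraries held 267 to 483 counts, and its ratio to the mean of the other WT libraries was 0.00245 (95% exact Poisson interval 6.2e-05 to 0.0136, which covers counting error only). Of the 2926 genes that averaged 10 to 30 CPM over the remaining 5 libraries, 80 (2.73%) had at most 1 count in WT replicate 2, whereas 0 had so few in any other library. The means were 12.8 ± 11.4 CPM in WT and 17.1 ± 4.89 CPM in cKO (SD, n = 3 each), and the log2 fold change was 0.41 (SE 1.20; unadjusted p = 0.741 in edgeR). Without WT replicate 2 it was -0.17 (SE 0.24; 95% interval -0.72 to 0.37; unadjusted p = 0.484 in edgeR), and the 2 remaining WT libraries lay within the cKO range.

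Egr3, a close relative of Egr2 that acts with it in restraining T cells, was the least abundant member and the one whose groups did not overlap. WT libraries had 8.84, 19.9 and 9.80 CPM of it and cKO libraries 7.47, 6.05 and 5.20 CPM. Every cKO library lay below every WT library, and WT replicate 2 was 2.13 times the mean of the other WT libraries. The means were 12.8 ± 6.12 CPM in WT and 6.24 ± 1.15 CPM in cKO (SD, n = 3 each), a log2 fold change of -1.04 (SE 0.42; 95% interval -2.03 to -0.052). The unadjusted p was 0.0415 in edgeR and the adjusted p 0.984, while the exact permutation test (two-sided) stood at the smallest p it allows, 0.1. Without WT replicate 2 the log2 fold change was -0.58 (SE 0.23; 95% interval -1.09 to -0.068; unadjusted p = 0.0306 in edgeR), with a mean CPM in cKO 0.670 times that in WT.

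The counts behind Egr3 were 185, 423 and 188 in the WT libraries, against 161, 126 and 117 in cKO. The nearest pair across the groups, WT replicate 1 and cKO replicate 1, had overlapping 95% exact Poisson intervals of 7.61 to 10.2 and 6.36 to 8.72 CPM. Egr3, like Nr4a2, Nr4a3 and Egr4, was lower in cKO under all 14 alternative settings and fits. As the groups of Egr3 did not overlap, leaving out 1 library could hardly turn its direction. Its log2 fold changes ran from -1.25 to -0.58, and its unadjusted p was under 0.05 in 10 of the 14. It was 0.0973 in edgeR with the replicate number as a block, and 0.0651, 0.108 and 0.130 in edgeR without cKO replicates 1, 2 and 3. The adjusted p of Egr3 was never under 0.05, the lowest being 0.677.

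**Figure D3:**
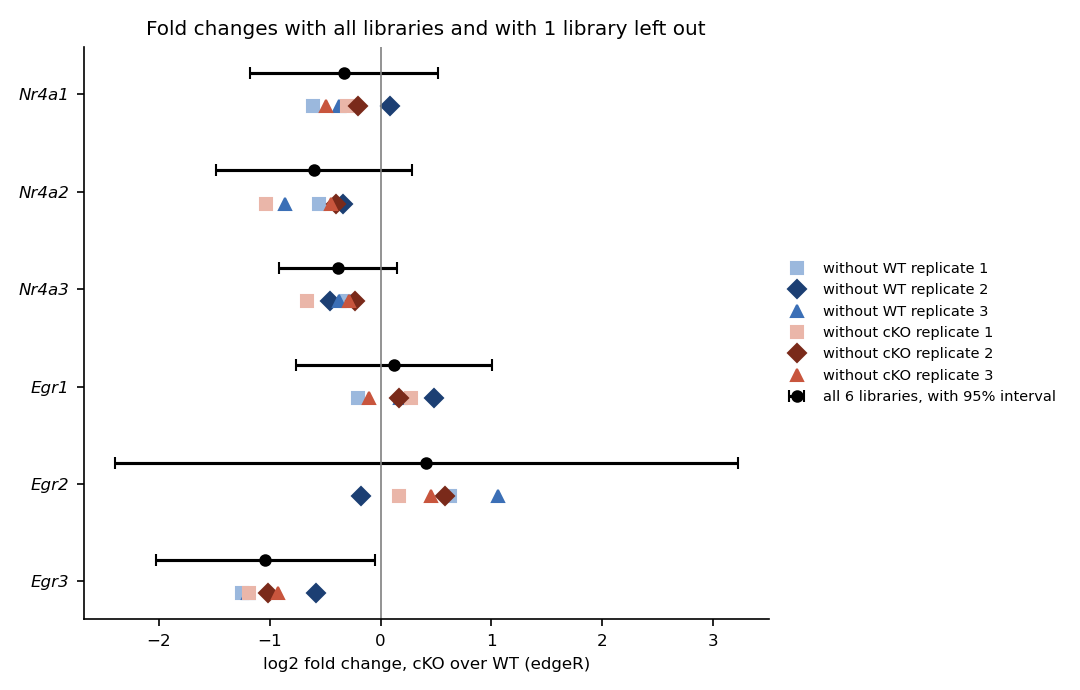
Log2 fold change of cKO over WT in edgeR for each member, with all 6 libraries (black, with the 95% interval) and with each library left out in turn (coloured points). Every point lies below 0 for Egr3 (-1.25 to -0.58), Nr4a2 (-1.03 to -0.34) and Nr4a3 (-0.67 to -0.23). The points of Nr4a1, Egr1 and Egr2 lie on both sides of 0.

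WT replicate 2 was the highest of the 6 libraries for 4 of the 6 members, namely Nr4a1, Nr4a2, Egr1 and Egr3, and the lowest for Egr2. Its ratio to the mean of the other WT libraries was 2.0 for Nr4a1, 1.61 for Nr4a2, 0.862 for Nr4a3 and 1.85 for Egr1. Shares were taken over the genes with a mean of at least 10 CPM, which leaves out Egr3 itself, at 9.54 CPM. Ratios at least as high were found in 6.27% of these genes for Nr4a1, 14.5% for Nr4a2, 60.0% for Nr4a3, 8.48% for Egr1 and 4.71% for Egr3. Egr2 lay at the other end, since 99.3% of these genes had a ratio at least as high.

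Divided by the merged exon length of the GENCODE vM21 gene models (GRCm38), so that genes can be compared, the order of the levels over all 6 libraries was Nr4a1, Egr1, Nr4a2, Nr4a3, Egr2 and Egr3. The mean level of Nr4a1 was 432 ± 202 CPM per kb in WT and 344 ± 69.3 in cKO (SD, n = 3 each), and its lowest library, at 247 CPM per kb, exceeded every library of the other members. Egr1 followed with 48.0 ± 22.8 CPM per kb in WT and 52.3 ± 13.7 in cKO, then Nr4a2 with 42.8 ± 15.8 and 28.2 ± 12.8, and Nr4a3 with 28.5 ± 2.70 and 21.9 ± 6.90. These 3 neighbours overlapped across libraries, with ranges of 23.9 to 69.3 for Egr1, 20.04 to 57.2 for Nr4a2 and 17.1 to 31.2 CPM per kb for Nr4a3. Egr2 had 3.77 ± 3.36 CPM per kb in WT and 5.02 ± 1.44 in cKO, and Egr3 had 2.91 ± 1.39 and 1.42 ± 0.260. Over the 5 libraries without WT replicate 2, Egr2 ranged from 3.77 to 6.60 and Egr3 from 1.18 to 2.22 CPM per kb, which do not overlap.

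None of the 6 members overlaps another annotated gene in GENCODE vM21. The genes lie on GRCm38 at 101254269 to 101274795 of chromosome 15 (Nr4a1, + strand), 57106830 to 57124003 of chromosome 2 (Nr4a2, - strand) and 48045153 to 48086447 of chromosome 4 (Nr4a3, + strand). Egr1 spans 34859823 to 34864984 of chromosome 18, Egr2 67535475 to 67542188 of chromosome 10 and Egr3 70077203 to 70082614 of chromosome 14, all on the + strand.

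The members fell into differing patterns across libraries. Likeness was measured as the root-mean-square difference of log2(CPM + 0.5) after each gene's own mean had been subtracted, where 0 means the same profile. Over 6 libraries the closest pair was Nr4a1 and Egr1, at 0.296, and both had WT replicate 2, cKO replicate 3 and WT replicate 3 as their highest libraries and WT replicate 1 as their lowest. Without WT replicate 2 the closest pair was Nr4a3 and Egr3, at 0.189, followed by Nr4a3 and Egr2 at 0.237 and Nr4a2 and Nr4a3 at 0.250, while Nr4a1 and Egr1 stood at 0.297. These are descriptions over 6 or 5 libraries that share the same scaling.

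**Figure D4:**
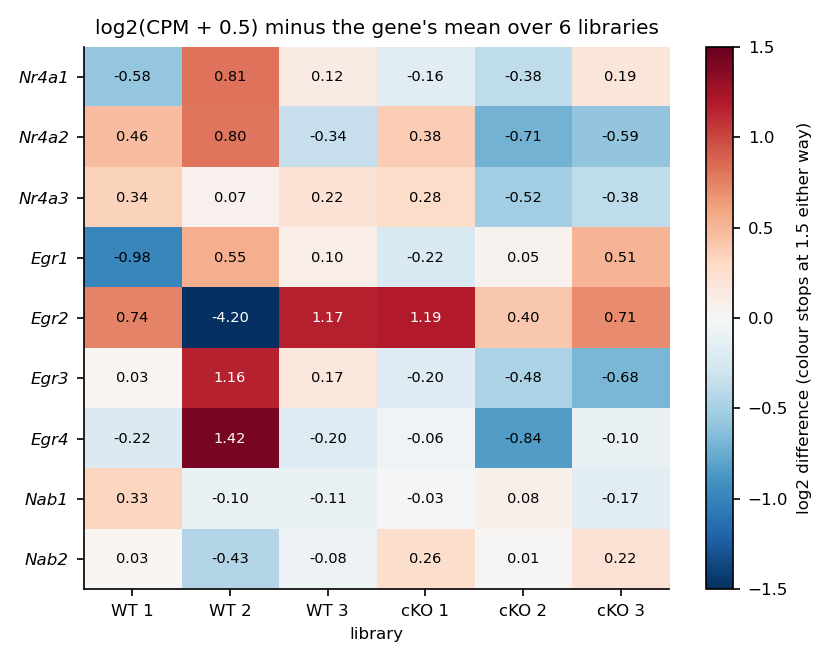
Difference of log2(CPM + 0.5) from the gene's mean over 6 libraries, for the 6 members and for Egr4, Nab1 and Nab2 (printed in each cell; colours stop at 1.5 either way). Egr2 stands at -4.20 in WT replicate 2, where Egr3 is at 1.16 and Nr4a1 at 0.81, and Nr4a1 and Egr1 are lowest in WT replicate 1, at -0.58 and -0.98.

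The ratio of 2 members within a library does not depend on how libraries are scaled, and the ratios below were chosen after the values had been seen. Egr1 was 12.1, 15.6 and 23.3 times as high as Egr3 in CPM in the WT libraries, against 24.3, 36.3 and 58.0 times in cKO. All cKO ratios of Egr1 to Egr3 lay above all WT ratios, although cKO replicate 1 and WT replicate 3 nearly met. Egr3 alone already separated the groups, and how often other gene pairs do so was not computed. Ratios were formed only among the NR4A genes, among the EGR genes and for Nr4a1 over Egr1, and the groups overlapped for all except Egr1 over Egr3. The separation is not particular to that pair. By the CPM given above, Nr4a1 over Egr3, which was not among the ratios formed, was also higher in every cKO library than in every WT library. Nr4a1 was 8.07, 7.31 and 6.17 times as high as Egr1 in the WT libraries, against 6.36, 4.52 and 4.88 times in cKO, so the groups overlapped. Nr4a1 over Nr4a3 ran from 4.64 to 14.7 in WT and from 6.49 to 13.1 in cKO libraries, again with overlap.

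Among genes with a mean of at least 10 CPM, those whose profile over the 6 libraries was most like that of a member were named by the same measure. Klf7, a zinc finger factor, came closest to Nr4a1 (0.0796, where the median gene stood at 0.489), followed by Entpd5 and H6pd. For Egr1 the closest were Pde2a, a cyclic nucleotide phosphodiesterase (0.0614 against 0.565 for the median gene), H2-Ob and Btg2, itself an immediate-early gene. For Nr4a3 they were Ttbk1 (0.0291 against 0.419), Ptprs and Rel, which encodes the NF-kB subunit c-Rel, and for Nr4a2 they were Chst11 (0.166 against 0.608), Il18rap and Gtf2ird1. Poglut2 came closest to Egr3 (0.108 against 0.622), followed by Ppip5k2 and Arhgap39. The 3 genes closest to Egr2, namely Slc37a4, Atp9a and Snx29, were all at 0 counts in WT replicate 2, which allows up to 0.141 CPM.

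Leaving out WT replicate 2 kept Ttbk1 and Ptprs beside Nr4a3, now with Hivep3, and Pde2a beside Egr1, now with Klf11 and Rhob. The nearest genes of the other 4 members all differed from those over 6 libraries. They were Taf4b, Plcl1 and Tsc22d2 for Nr4a1, Gm3558 and Susd2 among those for Nr4a2, Gm42368, Micu3 and Piezo1 for Egr2, and Aktip, Ogt and Lta for Egr3, the last encoding lymphotoxin alpha.

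The nearest relative and the corepressors of the EGR factors did not pass the test either. Egr4, the remaining EGR gene, had 0.860, 3.76 and 0.886 CPM in the WT libraries, against 1.02, 0.384 and 0.978 CPM in cKO. Its log2 fold change was -1.20 (SE 0.89; unadjusted p = 0.217 in edgeR) and -0.14 without WT replicate 2, the library where it was highest. Nab1, which encodes a corepressor that binds EGR proteins, had a log2 fold change of -0.089 (SE 0.17), with 145 ± 26.2 CPM in WT and 136 ± 11.7 CPM in cKO (SD, n = 3 each). Nab2, a second such corepressor and itself an EGR target, had 60.8, 44.1 and 56.6 CPM in the WT libraries, against 71.6, 60.3 and 69.5 CPM in cKO. Nab2 had a log2 fold change of 0.32 (SE 0.17; unadjusted p = 0.0972 in edgeR) and overlaps Stat6, Gm16229 and Nemp1 on the other strand, so its reads could not be assigned with certainty where strand was not used.

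Upstream of the EGR genes, the 12 listed serum response, CREB and MEF2 factors showed no call in either direction at an unadjusted p of 0.05. Of these 12, 4 were higher and 8 lower in cKO, with a median log2 fold change of -0.055, against 8343 higher and 6972 lower and a median of 0.044 over all genes tested. The most abundant were Crem, a CREB family member, at a log2 fold change of -0.0041, and Hdac7, a deacetylase that holds MEF2 factors in check, at -0.20. Downstream, the 19 genes reported as EGR targets in T cells divided into 10 higher and 9 lower, with a median of 0.039 and 0 past an unadjusted p of 0.05. Tnfrsf9, which encodes the costimulatory receptor 4-1BB, was at 852 ± 634 CPM in WT and 850 ± 196 CPM in cKO, and Dgka, which encodes a diacylglycerol kinase linked to anergy, was at 564 ± 204 and 592 ± 83.1 CPM (SD, n = 3 each).

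The 20 genes reported as NR4A targets in T cells were lower in cKO for 16 and higher for 4, with a median log2 fold change of -0.23, against 0.044 over all genes. Only 1 of the 20 passed an unadjusted p of 0.05 in edgeR, where 1.81% of all genes did, and 0 passed an adjusted one. Without WT replicate 2, 2 of the 20 were lower and 0 higher at the unadjusted threshold, which 3.01% of all genes passed. Cd200, which encodes a ligand that restrains myeloid cells, had 65.9, 75.6 and 47.9 CPM in the WT libraries, against 50.1, 40.2 and 36.2 CPM in cKO, with overlap through WT replicate 3. Its log2 fold change was -0.58 (SE 0.22; unadjusted p = 0.0288 and adjusted p = 0.984 in edgeR). Tnfrsf4, which encodes the costimulatory receptor OX40, was at 2215 ± 750 CPM in WT and 1821 ± 137 in cKO, and Ctla4, an inhibitory receptor central to Treg function, at 1302 ± 81.2 and 1076 ± 184 CPM (SD, n = 3 each). The summed level of the 20 genes was 11430 CPM in WT replicate 1 and 6740 to 8355 CPM in the other 5 libraries, and without WT replicate 1 the median log2 fold change was -0.010, against 0.11 over all genes.

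Of 30 genes that report antigen receptor activation, 19 were lower and 11 higher in cKO, with a median log2 fold change of -0.16, and 4 of the 30 are also among the NR4A targets. At an unadjusted p of 0.05 in edgeR, 2 were lower and 0 higher, where 133 of all 15315 genes were lower and 144 higher (1.81% in all). These were Hivep3, a zinc finger factor, with a log2 fold change of -0.70 (unadjusted p = 0.0315), and Cd83, an activation marker, with -0.54 (unadjusted p = 0.0365), and for both every cKO library lay below every WT library, as for 3.23% of all genes. Leaving out WT replicate 2 gave -0.55 for Hivep3 (unadjusted p = 0.0212 in edgeR) and -0.40 for Cd83, which then no longer passed (unadjusted p = 0.0597 in edgeR). Of the 30 genes, 2 were again lower and 0 higher at that threshold without WT replicate 2, where 3.01% of all genes passed. Nfkbia, which encodes the NF-kB inhibitor IkB alpha, had -0.19 (unadjusted p = 0.403 in edgeR). Without WT replicate 1 the median of the 30 genes was -0.0043, against 0.11 over all genes.

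The 39 immediate-early genes that tissue digestion can also induce were listed because Tregs from tumors pass through digestion before RNA is taken. They divided into 18 higher and 21 lower, with a median log2 fold change of -0.0014 and 0 past an unadjusted p of 0.05. Without WT replicate 2 they divided into 30 higher and 9 lower, with a median of 0.13. There 1 of them, lower in cKO, passed an unadjusted p of 0.05 in edgeR, as did 3.01% of all genes. When WT replicate 1 was left out instead, the median was -0.23, against 0.11 over all genes, so its sign turned on which WT library was missing. Their summed level was 32890, 51870 and 40270 CPM in the WT libraries, against 40780, 38910 and 40610 CPM in cKO. WT replicate 2 was the highest and WT replicate 1 the lowest in this sum, as for Nr4a1 and Egr1, and its part in their levels was not tested. Junb, an AP-1 subunit and 1 of the 2 most abundant of them beside the chaperone Hspa8, was at 5086 ± 2094 CPM in WT and 4070 ± 452 CPM in cKO (SD, n = 3 each).

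**Figure D5:**
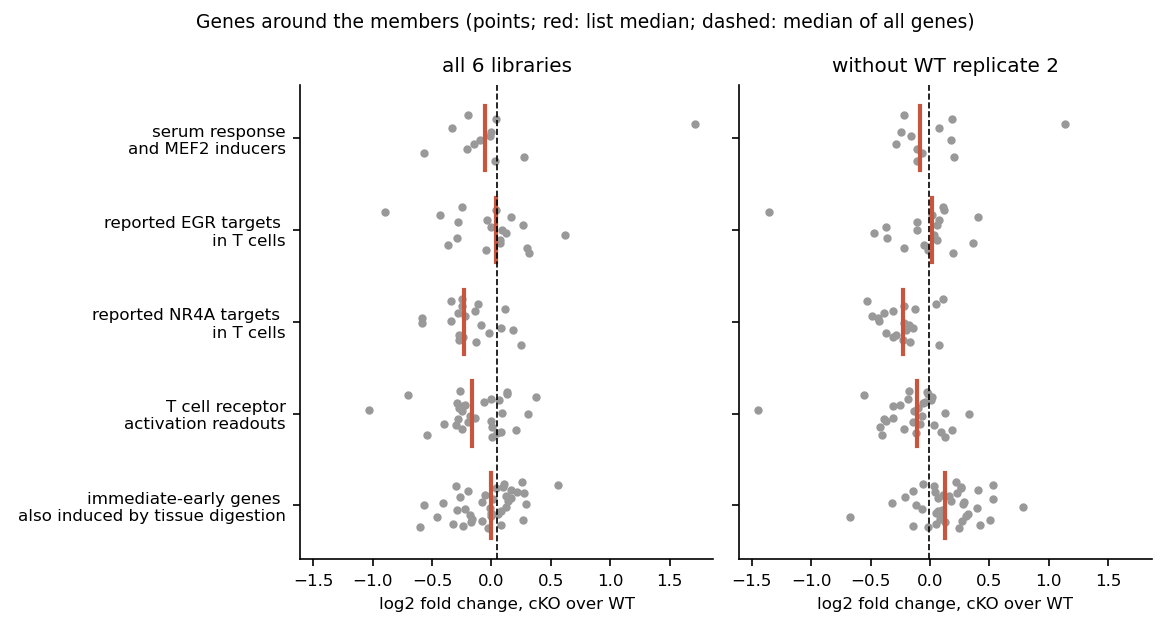
Log2 fold change of cKO over WT in edgeR for each gene (grey points) of 5 lists, with the list median (red) and the median of all genes (dashed), for all 6 libraries (left) and without WT replicate 2 (right). The NR4A targets have a median of -0.23 and -0.22, and the immediate-early genes move from -0.0014 to 0.13 when WT replicate 2 is left out.

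The macrophage and monocyte markers reached 1123 CPM in cKO replicate 3, against 5541 CPM for the Treg markers there. Each of the remaining lists of markers of other cells, taken alone, summed to at most 235 CPM in any library. Summed CPM was 11.5 to 20.5 in WT and 16.0 to 19.9 in cKO libraries for 9 measured neutrophil markers, of which 7 were higher and 2 lower in cKO. Of these, 3 were higher at an unadjusted p of 0.05 in edgeR (1.81% of all genes passed it), namely Retnlg, Ngp and S100a9, all under 2 CPM in every library, while Cxcr2, the most abundant, was at 9.17 ± 1.47 CPM in WT and 6.12 ± 1.56 CPM in cKO (SD, n = 3 each). Summed CPM was 15.3 to 43.1 and 12.7 to 55.9 for 8 B cell markers (Pax5 passed that threshold, at 0 to 0.756 CPM, and did not without WT replicate 2, where its unadjusted p was 0.0522 in edgeR), 17.0 to 49.7 and 27.1 to 35.7 for 7 dendritic cell markers, and 5.26 to 26.9 and 26.0 to 29.4 for 6 CD8 T and NK cell markers. For 15 stromal, endothelial and lung epithelial markers it was 165 to 235 in WT and 167 to 198 in cKO libraries. The part of these cells in the levels of the NR4A and EGR genes was not tested.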

How the data were processed

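Tregs from LLC lung tumors were profiled by bulk RNA-Seq, with 3 WT and 3 cKO libraries. The authors sequenced paired-end reads on BGI-Seq500, aligned them to GRCm38, and deposited expected counts per gene symbol without normalization, and the submitters' processing notes name Bowtie2 (2.3.4.3) and RSEM (1.3.1). The annotation and the use of strand are not given in the sources used here. Of the values, 21.6% were not whole, and all were rounded to whole counts before testing.

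Genes with at least 1 count (15315) were scaled by TMM and tested with edgeR (4.0.16, with limma 3.58.1, in R 4.3.3) by the quasi-likelihood test of cKO against WT, with Benjamini-Hochberg adjustment over all genes. Exact permutation tests were two-sided. An absent gene may still have up to 3 counts, which came to 0.133 to 0.156 CPM, a bound for counting error only. The labels do not say that libraries came from separate mice, so p-values measure the spread between these libraries. Replicates of a group differed by more than sampling noise (chi-square per gene 22.6 to 279).

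The members and the gene lists were chosen with earlier results of these data known, and the lists were written from general knowledge. Named were the members, Egr4, Nab1, Nab2 and Xrcc6, from each other list the 2 most abundant genes and up to 3 with the smallest unadjusted p under 0.05, and the 3 genes most like each member. One gene that this rule names is not reported here. From the marker lists only genes that a result touches are named. Alternatives were DESeq2 (1.42.0), limma's voomWithQualityWeights, median-of-ratios scaling, library size only, filterByExpr (minimum count 10), a robust fit, the replicate number as a block, and each library left out. The scripts were tested on simulated data. Promoter sequences were matched for 4 of the 6 members, and protein sequences were not analysed here.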

Additional observations from a re-analysis of the deposited data

How the results depend on the processing

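The number of genes past an adjusted p of 0.05 was 0 in edgeR, 2 in DESeq2 and 3 in DESeq2 without WT replicate 2, and it ranged from 0 to 1 when single libraries were left out. At an unadjusted p of 0.05 it was 277, against 140 with filterByExpr, 543 with limma's voomWithQualityWeights and 65 to 874 with single libraries left out. With the replicate block it was 85, and the number of members past an unadjusted p fell from 1 to 0. Deviations from the group mean correlated between WT and cKO libraries of the same replicate number at -0.0121, -0.214 and 0.199. Without values for libraries of unlike number, these neither show nor exclude a pairing by replicate number. Of the members, 2 passed an unadjusted p of 0.05 with voomWithQualityWeights and 0 to 2 with single libraries left out. The log2 fold change of Nr4a1 was 0.017 with voomWithQualityWeights and 0.083 in DESeq2 without WT replicate 2, and -0.61 to 0.087 with single libraries left out. That of Egr1 ran from -0.20 to 0.49 in the same way, with -0.20 without WT replicate 1 and -0.10 without cKO replicate 3. That of Egr2 ran from -0.17 to 1.06, and was 1.43 with the replicate block and -0.18 in DESeq2 without WT replicate 2. For Nab1 it was 0.070 without WT replicate 1. Xrcc6 passed an adjusted p of 0.05 in DESeq2 (log2 fold change -3.05), in edgeR without WT replicate 2 (-2.38) and in DESeq2 without it (-2.38). With single libraries left out, the medians ran from -0.16 to 0.070 for Egr4, Nab1 and Nab2, from -0.15 to 0.12 for the EGR targets, from -0.27 to -0.010 for the NR4A targets, from -0.18 to -0.0043 for the activation readouts and from -0.23 to 0.13 for the immediate-early genes. The cause of these shifts was not tested. With 3 libraries a group, differences inside the intervals given could not be resolved, and the level of Egr2 in WT replicate 2 rests on 1 count. The median of all genes moved from 0.044 to -0.012 with library size only and to 0.11 without WT replicate 1.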
